A study of Mus musculus with 24 samples.

Results

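Interferon-stimulated genes were examined in the lungs of adult and aged mice after saline, house dust mite (HDM) challenge, or HDM challenge with dexamethasone (Dex). The set held 39 of the 23891 genes in the table of lung expression, chosen by gene symbol: 27 respond mainly to type I interferons and 12 mainly to interferon-gamma, and all 39 passed the filter on low values. Both classes overlap in cells, so the class names describe the usual stronger inducer. Messenger RNA of the left lung lobe of 24 wild-type C57BL/6 mice was sequenced, and the values are CPM, the reads of a gene scaled to a common total of reads on genes. The groups were naïve adult mice (20 wk old, given saline, n = 5), naïve aged mice (80 wk old, given saline, n = 5), and 2 groups of aged mice given HDM, without Dex (n = 7) or with it (n = 7). HDM was given through the nose at 50 µg a dose for sensitization and in repeated challenges and Dex (4 mg/kg) was injected into the abdomen at intervals of 72 h. The lungs were collected 24 h after the last HDM dose, from mice of both sexes. Adult mice given HDM were not analysed here, so the response to HDM is described in aged mice alone, and each replicate is 1 mouse.

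Interferons are secreted when cells sense viral or self nucleic acids or when lymphocytes are activated. Type I interferons bind a receptor that is present on nearly every cell and act through a complex that includes STAT2 and IRF9 and binds interferon-stimulated response elements (ISRE) in promoters. Interferon-gamma, made mainly by T and NK cells, acts through gamma-activated sites (GAS), and through IRF1 it reaches ISRE-like elements as well. In the lung these genes are known for defence against viruses, and the chemokines Cxcl9 and Cxcl10 draw T cells into tissue.

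The regulatory letters of these genes can be read in their promoters. RefSeq windows of 300 bases (mouse build GRCm38.p6), from 250 bases before to 50 bases after an annotated start, were found for 30 of the 39 genes. The windows of Dhx58, Gbp4, Mx1, Mx2, Oas2, Parp14, Rtp4, Usp18 and Zbp1 were not analysed here. The windows found were searched on both strands for the ISRE letters GAAANNGAA and the GAS letters TTCNNNGAA, where N is any base, and matches of the motifs may overlap. ISRE letters stood in a window of 11 of 19 type I genes (57.9%) and 9 of 11 interferon-gamma genes (81.8%), against 9.76% of all 27025 genes with such a window. GAS letters stood in 3 of 19 type I genes (15.8%) and 6 of 11 interferon-gamma genes (54.5%), against 9.55% of all genes. A match of letters is a description and not evidence of binding.

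Below are the windows of the genes on which the results turn, written 5′ to 3′ on the strand of the gene with matched letters in capitals. Isg15 is shown as a type I gene whose ISRE letters repeat, Bst2 as a type I gene that rose with HDM, Cxcl9 and Cxcl10 as the chemokines that rose with age, and Igtp and Irf1 as interferon-gamma genes with GAS letters.
Isg15 (chr4:156200769-156201068, minus strand): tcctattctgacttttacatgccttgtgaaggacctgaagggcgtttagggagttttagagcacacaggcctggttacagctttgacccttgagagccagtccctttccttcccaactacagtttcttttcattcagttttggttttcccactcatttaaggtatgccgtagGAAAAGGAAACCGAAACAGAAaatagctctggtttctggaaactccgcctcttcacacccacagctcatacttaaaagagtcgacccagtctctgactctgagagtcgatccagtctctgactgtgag
Bst2 (chr8:71537423-71537722, minus strand): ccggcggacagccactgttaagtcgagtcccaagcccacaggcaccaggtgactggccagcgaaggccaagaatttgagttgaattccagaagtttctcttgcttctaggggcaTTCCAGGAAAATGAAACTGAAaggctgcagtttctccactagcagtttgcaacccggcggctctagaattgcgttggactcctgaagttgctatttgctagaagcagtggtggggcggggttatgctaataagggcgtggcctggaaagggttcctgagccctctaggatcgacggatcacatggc
Cxcl9 (chr5:92328030-92328329, minus strand): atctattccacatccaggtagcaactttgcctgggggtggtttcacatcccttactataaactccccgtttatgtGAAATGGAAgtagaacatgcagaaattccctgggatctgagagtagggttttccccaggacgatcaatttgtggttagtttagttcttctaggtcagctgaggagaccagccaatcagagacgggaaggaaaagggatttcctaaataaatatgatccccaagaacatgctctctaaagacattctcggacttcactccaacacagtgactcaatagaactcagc
Cxcl10 (chr5:92348840-92349139, minus strand): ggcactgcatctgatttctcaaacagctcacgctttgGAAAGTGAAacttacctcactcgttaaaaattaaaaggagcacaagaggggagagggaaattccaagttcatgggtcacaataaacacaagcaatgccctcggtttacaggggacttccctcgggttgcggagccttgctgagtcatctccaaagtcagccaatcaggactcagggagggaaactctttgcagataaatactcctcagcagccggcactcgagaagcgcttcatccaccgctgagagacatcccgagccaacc
Igtp (chr11:58199306-58199605, plus strand): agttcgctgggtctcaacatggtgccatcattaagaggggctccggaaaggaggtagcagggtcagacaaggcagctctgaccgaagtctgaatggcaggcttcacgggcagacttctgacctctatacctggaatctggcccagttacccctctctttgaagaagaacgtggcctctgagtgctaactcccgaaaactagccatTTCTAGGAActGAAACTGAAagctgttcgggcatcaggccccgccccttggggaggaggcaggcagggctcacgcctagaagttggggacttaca
Irf1 (chr11:53769764-53770063, plus strand): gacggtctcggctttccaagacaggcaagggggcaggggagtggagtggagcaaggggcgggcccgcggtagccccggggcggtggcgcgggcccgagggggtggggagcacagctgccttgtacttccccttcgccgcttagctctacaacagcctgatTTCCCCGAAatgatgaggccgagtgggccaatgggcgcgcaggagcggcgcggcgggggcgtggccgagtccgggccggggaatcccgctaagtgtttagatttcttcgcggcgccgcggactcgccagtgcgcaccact
In Isg15, 3 overlapping ISRE matches began 78, 72 and 66 bases before the start. In Bst2, a GAS match 136 bases before the start ran into ISRE matches at 130 and 124 bases. The windows of Cxcl9 and Cxcl10 each held 1 ISRE match, at 175 and 213 bases, and no GAS letters. Igtp held GAS letters at 45 bases and ISRE letters at 34 bases, and the upstream window of Irf1 held GAS letters alone, at 90 bases. Irgm2, the neighbour of Igtp, overlaps it on the annotation (chr11:58199556-58207591 and chr11:58199618-58222782 in GRCm38), so reads of these genes may be shared between them.

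**Figure D1:**
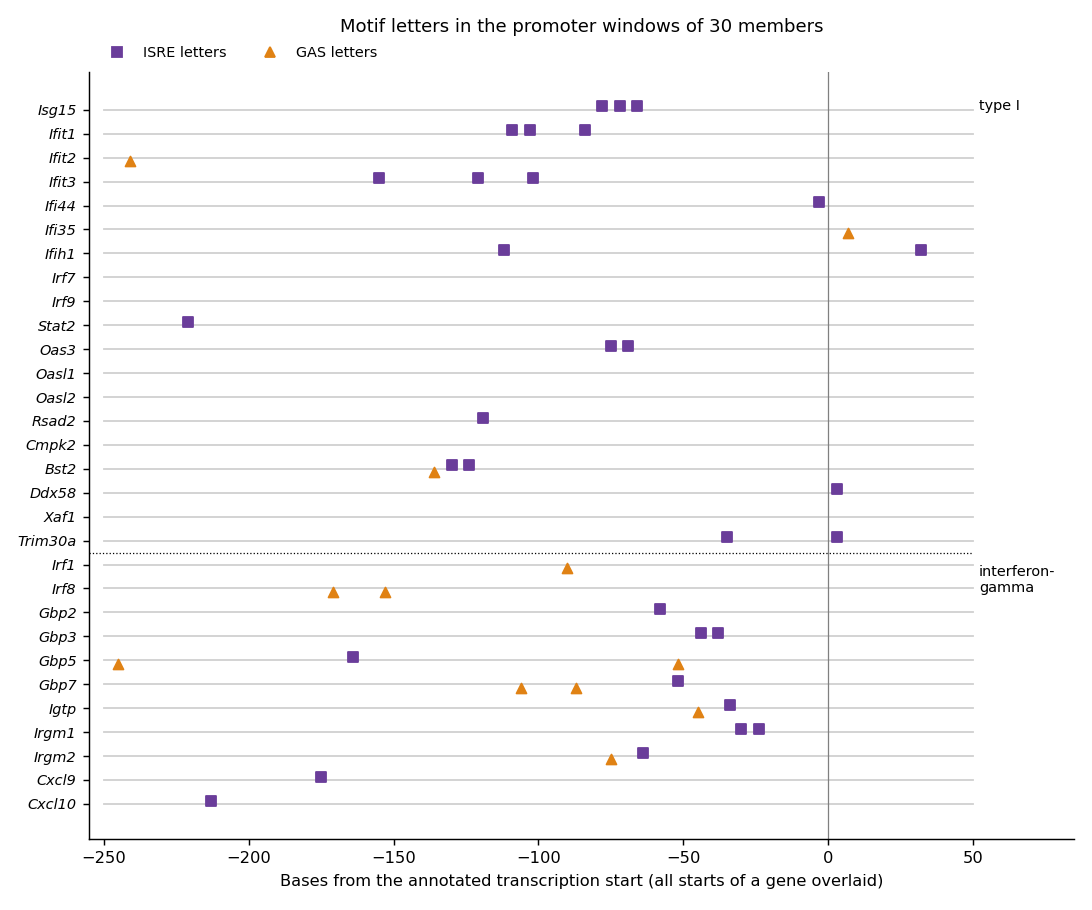
Position of ISRE letters (squares) and GAS letters (triangles) in the promoter windows of 30 members, in bases from the annotated start, with type I genes above the dotted line and interferon-gamma genes below it. The ISRE matches of Isg15, Ifit1, Ifit3, Oas3 and Bst2 above the line, and of Gbp3 and Irgm1 below it, stand in groups of 2 or 3. GAS matches are more frequent below the line (6 of 11 genes against 3 of 19).

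The libraries differed in ways that touch every result below. Depth, estimated from the spacing of low values, was 10.1 to 33.1 M reads per lung, and the detection floor, set at 3 reads, lay between 0.0906 and 0.298 CPM. This floor and the read numbers given below cover counting error only. The share of reads on 7SL RNA, a noncoding RNA of the signal recognition particle, was 9.92% to 42.0% and exceeded 25% in 1 naïve adult lung, in 5 HDM lungs and in 4 HDM + Dex lungs, and in no naïve aged lung. A high 7SL share lowers the CPM of all other genes, and the median difference over all 17744 genes tested was -0.23 for HDM vs. saline, 0.03 for HDM + Dex vs. HDM, -0.19 for HDM + Dex vs. saline and 0.19 for aged vs. adult, on the log2(CPM + 1) scale used for every fold change here. Results are therefore also given after median-of-ratios rescaling, which brought these medians to between -0.01 and 0.01. The female transcript Xist exceeded the Y-linked Ddx3y in 5 of 5 adult lungs, 2 of 5 naïve aged lungs, 2 of 7 lungs with HDM alone and 4 of 7 with Dex, so this marker of sex was not balanced across the groups. The Xist-positive HDM lungs, replicates 6 and 7, were also the HDM lungs with a 7SL share under 25%, so that sex, 7SL share and mouse cannot be told apart in them. Within a whole lobe, a change in the number of cells of a type and a change of RNA per cell cannot be told apart either. The 8 markers of lung epithelium and endothelium checked, such as surfactant and club cell genes, were present in every lung and summed to 4586 to 17948 CPM.

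In aged mice, HDM left most interferon-stimulated genes without a difference that passed the test. Of the 39 genes, 2 rose and none fell at an adjusted p under 0.05 (limma), when 25.3% of all genes tested passed in either direction and 4.04% passed upward. The share upward, 2 of 39, was thus near that of all genes. The genes that rose were Bst2, which encodes tetherin, a membrane protein that holds budding viruses on the cell surface, and Mx1, a dynamin-like antiviral GTPase. No member of either class separated the HDM lungs from the naïve aged lungs without overlap, as 1.03% of all genes did upward.

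Bst2 was at 7.73, 11.1, 7.06, 16.6 and 9.20 CPM in the naïve aged lungs. It ran from 10.9 over a median of 24.7 to 30.5 CPM in the HDM lungs and from 12.1 over 16.9 to 20.7 CPM in the HDM + Dex lungs. The HDM lungs were higher than the naïve ones except for replicate 5, which lay within their range, and the groups overlapped in 2 of 35 pairs of lungs. Its log2 fold change was 1.09 (SE 0.23, limma adjusted p = 0.0022), and 1.33 after rescaling. The call was kept under each of 33 other settings of scaling, filter, model and single lungs left out, with adjusted p between 0.00041 and 0.0474 (limma), though not in the fit of Xist-positive lungs alone given below. Bst2 is also a marker of plasmacytoid dendritic cells, and of 5 tested markers of those cells none rose with HDM and 1, Cox6a2, fell (log2 fold change -1.23, SE 0.38, limma adjusted p = 0.0229). Cox6a2 is also a gene of heart muscle, whose 7 markers all fell by between 2.01 and 3.67 on the log2 scale in this comparison. Of 9 macrophage markers 4 rose, and their sum was 258 to 349 CPM in naïve aged lungs and 455 to 3360 CPM in HDM lungs. The part of these cells in the level of Bst2 was not tested.

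Mx1 was at 3.88, 6.09, 5.95, 7.44 and 4.35 CPM in the naïve aged lungs. In the HDM lungs it ran from 6.02 over a median of 9.88 to 27.2 CPM, and in the HDM + Dex lungs from 4.25 over 7.65 to 15.6 CPM. Replicates 3 and 6 stood above the other HDM lungs at 24.5 and 27.2 CPM, and the remaining 5 lungs lay between 6.02 and 10.5 CPM. Its log2 fold change was 1.00 (SE 0.31, limma adjusted p = 0.0222), and the adjusted p missed the threshold in 4 of those 33 settings, reaching 0.21 with the 7SL share as a covariate. The other 3 were the fits without naïve aged replicate 1, without naïve aged replicate 5 or without HDM replicate 3, in which Bst2 alone passed. The annotation lists Mx1 and its neighbour Mx2 as polymorphic pseudogenes in this strain background, since the C57BL/6 alleles do not give a full protein, so the values count transcripts alone.

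After rescaling, 5 of the 39 genes rose with HDM (Bst2, Gbp3, Irf8, Mx1 and Parp14), when 11% of all genes tested rose. The median log2 fold change was 0.11 over the 27 type I genes and 0.46 over the 12 interferon-gamma genes as deposited, and 0.36 and 0.70 after rescaling. The fitted values were above 0 in 17 of 27 and 11 of 12 genes as deposited.

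**Figure D2:**
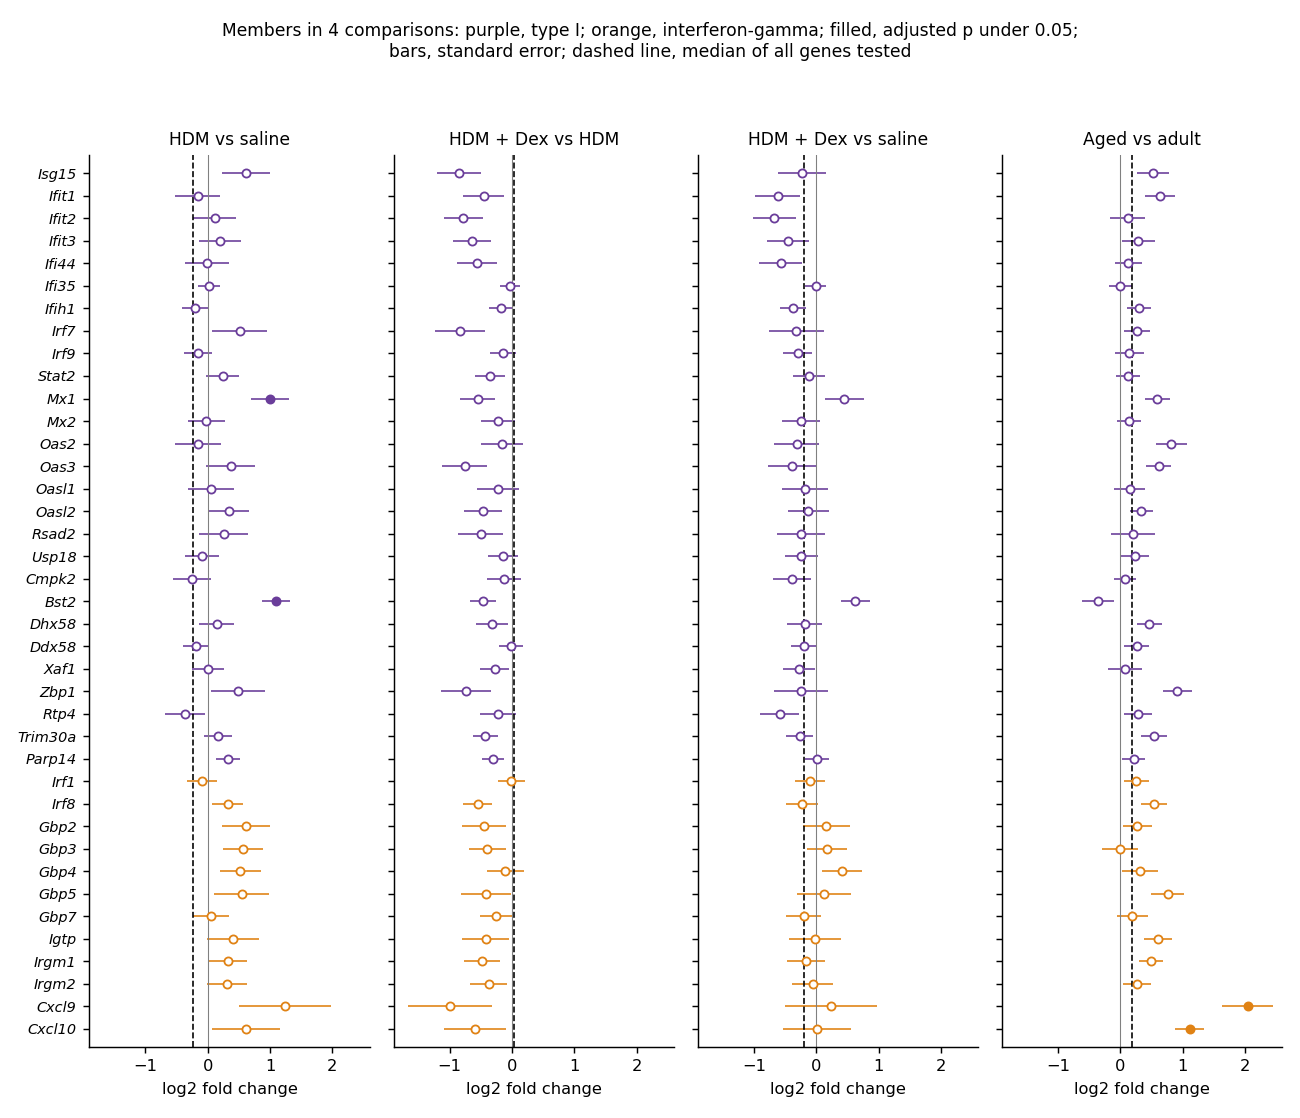
Log2 fold change with its standard error for each of the 39 genes in 4 comparisons, with type I genes in purple, interferon-gamma genes in orange, filled points for adjusted p under 0.05 (limma) and a dashed line at the median of all genes tested. Filled points are Mx1 and Bst2 for HDM vs. saline and Cxcl9 and Cxcl10 for aged vs. adult, and all 39 points lie below 0 for HDM + Dex vs. HDM.

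The small number of calls came with a wide spread between the HDM lungs. The median within-group SD on the log2 scale was 0.81 for type I and 0.80 for interferon-gamma genes in the HDM group, against 0.34 over all genes tested. In naïve aged lungs the corresponding values were 0.25, 0.31 and 0.25, and in naïve adult lungs 0.38, 0.44 and 0.40. In HDM + Dex lungs they were 0.43, 0.64 and 0.32, so the interferon-gamma genes were widely spread in that group as well.

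Isg15, a ubiquitin-like protein attached to other proteins during interferon responses, was at 3.77, 4.08, 18.9, 9.47, 4.48, 28.4 and 14.6 CPM in HDM replicates 1 to 7. Replicates 3, 6 and 7 were above the naïve aged range of 3.78 to 7.94 CPM by a wide margin and replicate 4 by less, while replicates 1, 2 and 5 were within it or just below. Irf7, the transcription factor that amplifies type I interferon production, was at 12.1, 11.7, 38.2, 20.5, 16, 128 and 66.9 CPM in the same lungs. The naïve aged lungs held 14.5, 28.3, 15.5, 21 and 23.3 CPM of Irf7, so replicates 3, 6 and 7 exceeded all of them and replicates 1 and 2 fell short of all of them. Neither gene passed the test (limma adjusted p = 0.237 for Isg15 and 0.399 for Irf7).

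The same lungs were high for the guanylate-binding proteins, GTPases that attack the vacuoles of intracellular microbes. Gbp2 was at 43.8, 33.8, 66.0, 49.2, 40.6, 117 and 217 CPM in HDM replicates 1 to 7, and at 44.7, 49.5, 48.0, 49.0 and 26.2 CPM in the naïve aged lungs. Here replicate 7 was the highest lung and replicate 6 the next, whereas Isg15 and Irf7 were highest in replicate 6. Cxcl9, a chemokine for activated T cells, followed Gbp2 with 6.85, 2.14, 17.9, 8.29, 4.39, 36.7 and 60.9 CPM. Its naïve aged values were 1.13, 8.68, 7.88, 9.95 and 1.34 CPM, so HDM replicates 3, 6 and 7 lay above that range (log2 fold change 1.23, SE 0.74, limma adjusted p = 0.219).

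**Figure D3:**
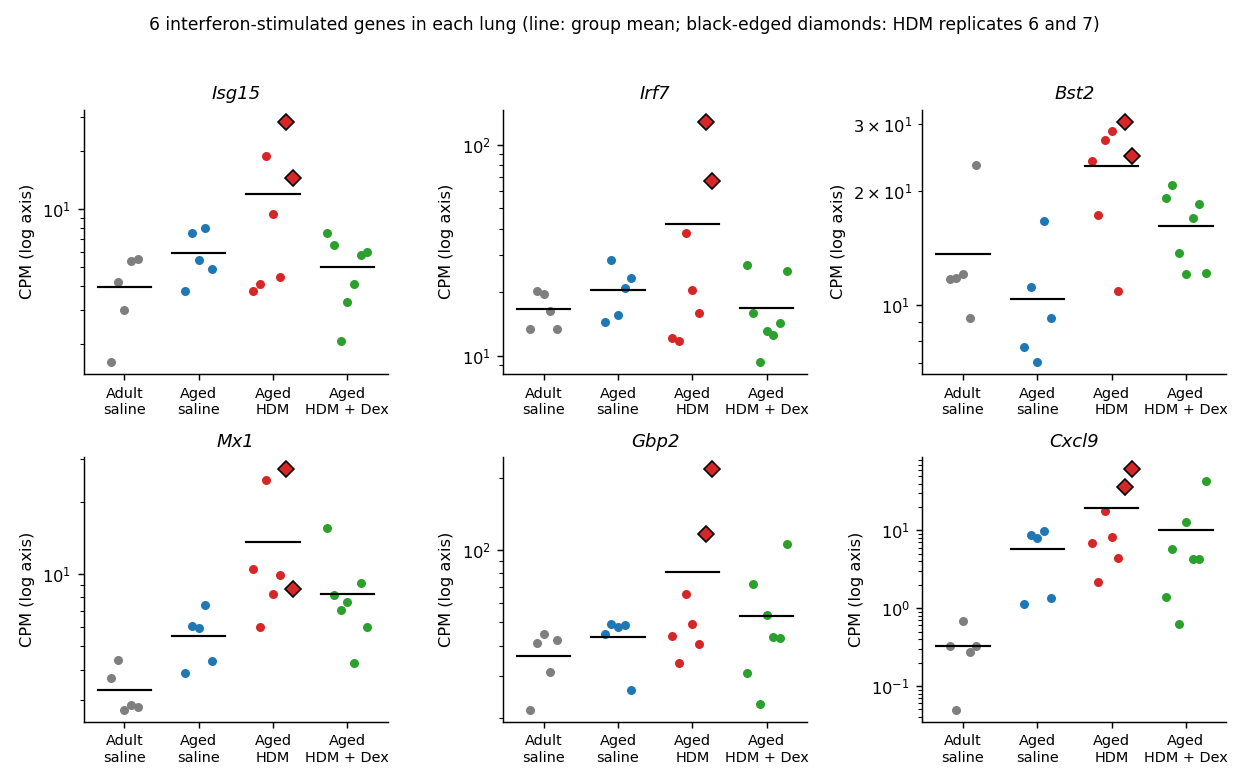
CPM on a log axis of Isg15, Irf7, Bst2, Mx1, Gbp2 and Cxcl9 in each of the 24 lungs by group, with a line at the group mean and black-edged diamonds for HDM replicates 6 and 7. For Isg15, Irf7, Gbp2 and Cxcl9 the diamonds are above every naïve aged lung, while the other HDM lungs lie within, above or below the naïve aged range, and for Bst2 6 of 7 HDM lungs are above all naïve aged lungs.

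These examples hold for the whole set. HDM replicates 6 and 7 each exceeded every naïve aged lung in 39 of 39 genes as deposited and in 37 after rescaling, when 16.8% and 15.5% of all genes tested did so. The highest of all 24 lungs was HDM replicate 6 for 27 of 27 type I genes, and HDM replicate 7 for 10 of 12 interferon-gamma genes (replicate 6 for Irf8 and Cxcl10). After rescaling these counts were 23 of 27 and 9 of 12. Replicate 6 or 7 was the highest of 24 lungs for 17.3% of all genes tested as deposited and 7.94% after rescaling. The genes are not independent of each other, and these counts describe 2 mice.

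The classes differed between these 2 lungs in which was higher. The ratio of replicate 6 to replicate 7 was above 1 for 27 of 27 type I genes, with a median of 1.42 and a range of 1.06 to 3.14. For the interferon-gamma genes the median was 0.776, with a range of 0.536 to 1.22, and 2 of 12 ratios were above 1. Expressed as the median log2 difference from the naïve aged mean, replicate 6 was at 1.48 for type I and 1.22 for interferon-gamma genes, and replicate 7 at 0.74 and 1.68. As deposited, replicate 3 came next at 0.39 and 0.55, and its 7SL share was 34%. After rescaling replicate 3 was at 0.86 and 1.02, replicate 6 at 1.44 and 1.18, and replicate 7 at 0.71 and 1.66. On that scale replicate 3 was thus above replicate 7 for the type I genes and below both lungs for the interferon-gamma genes. The other 4 HDM lungs were between -0.68 and -0.15 for type I and between -0.40 and 0.11 for interferon-gamma genes as deposited.

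**Figure D4:**
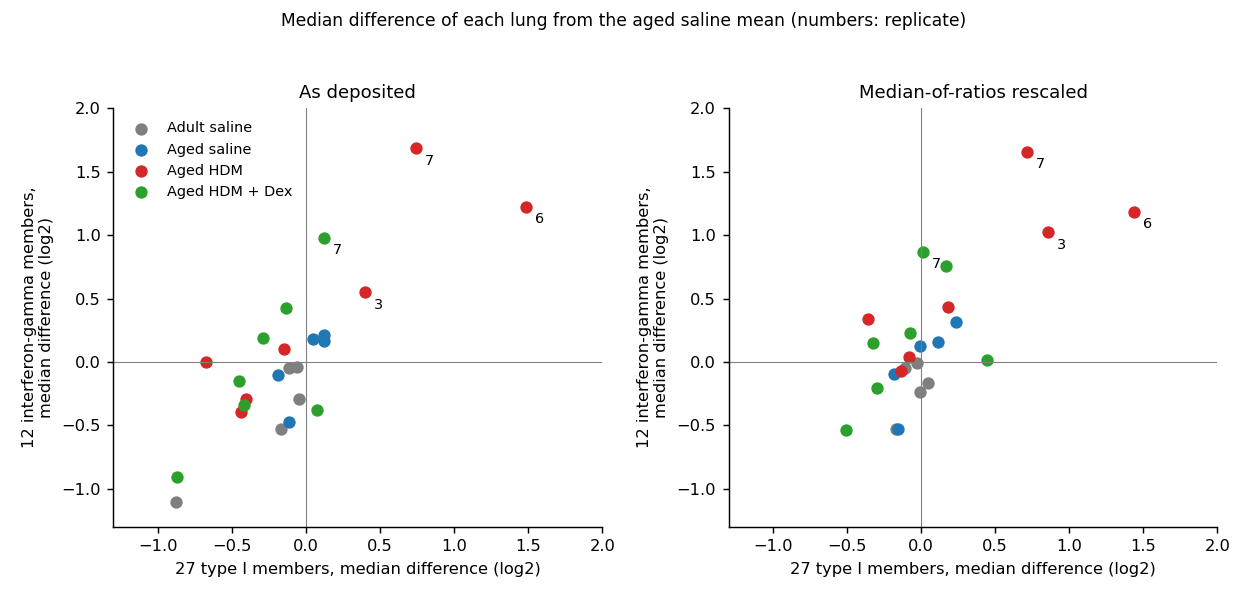
Median log2 difference of each lung from the naïve aged mean over the 12 interferon-gamma genes (vertical) and the 27 type I genes (horizontal), as deposited and after median-of-ratios rescaling. HDM replicates 6 (1.48, 1.22) and 7 (0.74, 1.68) lie at the upper right of both panels on either side of the diagonal, replicate 3 joins them after rescaling, and HDM + Dex replicate 7 (0.12, 0.98) is raised for the interferon-gamma genes alone.

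As deposited, summed T and NK cell, plasmacytoid dendritic cell and monocyte markers were higher in HDM replicates 6 and 7 than in the other HDM lungs. The B and plasma cell sums were not. These sums were not rescaled and carry the shift of all genes between lungs. The median log2 difference of all genes from the naïve aged mean was 0.04 and 0.02 in replicates 6 and 7. In replicates 1 to 5 it lay between -0.45 and -0.30. The summed CPM of 10 T and NK cell markers was 122 in HDM replicate 6 and 99.3 in replicate 7, against 46.4 to 58.6 in HDM replicates 1 to 5 and 27.9 to 94.4 in naïve aged lungs. Plasmacytoid dendritic cell markers summed to 28.6 and 37.1 CPM in replicates 6 and 7 and to 18.1 to 24.5 CPM in other HDM lungs. In naïve aged lungs they summed to 28.5 to 36.9 CPM. The B and plasma cell markers summed to 308 and 194 CPM in replicates 6 and 7 and to 262 to 704 CPM in replicates 1 to 5. On the log2 scale their mean was 5.35 in replicate 6 and 4.26 in replicate 7. Replicates 1 to 5 lay between 4.25 and 5.14, so replicate 6 was the highest HDM lung by that measure. Neutrophil markers summed to 69.4 and 252 CPM in replicates 6 and 7, to 47.6 to 87.6 CPM in the other HDM lungs and to 86.5 to 295 CPM in naïve aged lungs. Monocyte markers summed to 670 and 934 CPM in replicates 6 and 7, to 454 to 642 CPM in the other HDM lungs and to 698 to 839 CPM in naïve aged lungs. Macrophage markers summed to 989 and 961 CPM in them, which lay within the 455 to 3360 CPM of the group. Over the whole comparison of HDM with saline, no marker of T and NK cells or of B and plasma cells passed, 1 of 8 monocyte and 1 of 5 type 1 dendritic cell markers rose and 1 of each fell, 2 of 6 neutrophil markers fell, and 7 of 7 heart muscle markers fell. Of the 8 markers of lung epithelium and endothelium 4 fell, namely Scgb1a1, Hopx, Pecam1 and Cldn5. These marker counts are as deposited, a scale on which 3765 of all 17744 genes tested fell and 717 rose. The part of these cells in the interferon-stimulated genes was not tested.

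The count of calls depended on which HDM lungs entered the fit, in alternatives added after the values had been seen. Without HDM replicates 6 and 7, 7 of 39 genes passed (38.5% of all genes did): Bst2 and Mx1 rose, and Cmpk2, Ddx58, Ifih1, Irf1 and Rtp4 fell. Rtp4, a receptor-transporting protein induced by interferon, had a log2 fold change of -0.88 (SE 0.19, limma adjusted p = 0.0019) there and of 0.93 (SE 0.20, limma adjusted p = 0.0191) when only lungs with a 7SL share under 25% were kept. After rescaling, 4 genes passed without these lungs (Bst2, Mx1, Parp14 and Rtp4), when 22% of all genes did. Within the Ddx3y-positive lungs (3 naïve aged, 5 HDM), 4 of 39 genes passed (31.5% of all genes did): Bst2 and Mx1 rose, and Irf1 and Rtp4 fell. Within the Xist-positive lungs (2 naïve aged, 2 HDM), none of 39 and 0.0507% of all genes passed (limma), 36 members were higher at an unadjusted p under 0.05 (7.7% of all genes were), and the median log2 fold change was 1.02 for type I and 1.37 for interferon-gamma genes. Among lungs with a 7SL share under 25% (5 naïve aged, 2 HDM), 29 of 39 genes passed, all higher with HDM, when 6.04% of all genes passed, and the fold changes of those 29 ran from 0.85 for Cmpk2 to 3.16 for Cxcl9. In this and the preceding set the HDM lungs were replicates 6 and 7, known to be high, so these values are a description. The fits without those lungs are a description too, since leaving them out was bound to lower the HDM values.

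The remaining regulators and effectors of the type I class gave no call for HDM vs. saline in the fit of all lungs. Stat2 and Irf9, partners in the complex that binds ISRE, had log2 fold changes of 0.24 (SE 0.26) and -0.15 (SE 0.23). Ifit1 and Ifit3, which bind foreign RNA, had -0.16 (SE 0.36) and 0.19 (SE 0.34). Oas2, a sensor of double-stranded RNA, had -0.16 (SE 0.37). Rsad2, or viperin, which makes a chain-terminating nucleotide, had 0.26 (SE 0.39), and Usp18, the protease that removes Isg15 from proteins and dampens the type I receptor, had -0.10 (SE 0.27). Each of these genes was highest in HDM replicate 6, at 89.2 CPM for Stat2, 64.0 for Irf9, 68.8 for Ifit1, 138 for Ifit3, 32.2 for Oas2, 42.9 for Rsad2 and 38.5 for Usp18. The limma adjusted p was between 0.518 and 0.814 in these genes.

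Stat2 spanned 24.1 to 38.6 CPM in naïve adult lungs and 28.1 to 44.2 CPM in naïve aged lungs, and the lowest, median and highest values were 25.6, 33 and 89.2 CPM with HDM and 20.8, 30.7 and 46.4 CPM with HDM + Dex. Irf9 spanned 17.4 to 41.9 and 30.8 to 44.3 CPM in these naïve groups, with 21.4, 28.6 and 64 CPM for HDM and 18.7, 29.8 and 42.7 CPM for HDM + Dex. Ifit1 spanned 7.75 to 23.8 and 20.9 to 29 CPM in these naïve groups, with 9.5, 19.2 and 68.8 CPM for HDM and 9.18, 15.1 and 25.9 CPM for HDM + Dex. In these 3 genes the median HDM lung lay below the highest naïve aged lung, and the highest HDM lung above all others. Ifit3 spanned 14.7 to 41.3 and 30.7 to 49.4 CPM in these naïve groups, with 19.3, 36 and 138 CPM for HDM and 18.4, 33.3 and 42.1 CPM for HDM + Dex. Oas2 spanned 4.74 to 10.8 and 9.45 to 18.6 CPM in these naïve groups, with 4.11, 9.33 and 32.2 CPM for HDM and 4.94, 9.56 and 16.9 CPM for HDM + Dex. The same held for Ifit3 and Oas2, in which the groups overlapped widely. Rsad2 spanned 6.3 to 41.2 and 10.4 to 18.4 CPM in these naïve groups, with 6.59, 14.3 and 42.9 CPM for HDM and 4.48, 11.4 and 28.7 CPM for HDM + Dex. Usp18 spanned 7.75 to 18.6 and 12.8 to 21 CPM in these naïve groups, with 8.99, 14.4 and 38.5 CPM for HDM and 8.4, 14.6 and 19.2 CPM for HDM + Dex. Rsad2 and Usp18 overlapped likewise.

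Among the interferon-gamma genes, Irf1, the transcription factor induced directly through GAS, had a log2 fold change of -0.09 (SE 0.24), and Irf8, a factor of macrophages and dendritic cells, had 0.32 (SE 0.25). Gbp4 and Irgm1, GTPases of cell-autonomous immunity, had 0.52 (SE 0.33) and 0.32 (SE 0.31), and Cxcl10 had 0.61 (SE 0.55). None passed the test as deposited (limma adjusted p between 0.237 and 0.807), and Irf8 passed after rescaling, at 0.57 (limma adjusted p = 0.0437).

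Irf1 spanned 28.7 to 54.1 CPM in naïve adult lungs and 48 to 63.4 CPM in naïve aged lungs, and the lowest, median and highest values were 33.7, 41 and 96 CPM with HDM and 38.9, 48.8 and 84.2 CPM with HDM + Dex. Irf8 spanned 23.8 to 44.9 and 33.3 to 60.4 CPM in these naïve groups, with 42.2, 55 and 110 CPM for HDM and 25.9, 42.9 and 78.5 CPM for HDM + Dex. The highest HDM values of Irf1 and Irf8 stood in replicates 7 and 6. Gbp4 spanned 22.1 to 67.4 and 27.7 to 73.1 CPM in these naïve groups, with 45.2, 60.5 and 159 CPM for HDM and 34.5, 66.7 and 135 CPM for HDM + Dex. Irgm1 spanned 16.5 to 29 and 27.9 to 38.1 CPM in these naïve groups, with 24.2, 27.9 and 98.6 CPM for HDM and 17.4, 30.2 and 55 CPM for HDM + Dex. Both GTPases were highest in HDM replicate 7, and all groups overlapped in these 4 genes.

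Dex treatment of HDM-challenged mice gave no call among the 39 genes, in a comparison in which 0.964% of all genes tested passed. No gene of the set separated the groups without overlap, as 0.225% of all genes did. At an unadjusted p under 0.05, 7 genes were lower with Dex (4.96% of all genes were), namely Isg15, Ifit2, Ifit3, Oas3, Bst2, Trim30a and Irf8, and none was higher, and after rescaling 11 genes were lower at this level (9.3% of all genes were) and again none passed. All 39 fitted differences were below 0, with medians of -0.35 for type I and -0.42 for interferon-gamma genes, while the median of all genes was 0.03. With HDM replicates 6 and 7 left out, the medians were 0.00 and 0.08, against 0.14 over all genes, and 13 of 27 type I and 4 of 12 interferon-gamma genes were below 0. After rescaling without those lungs the medians were -0.15 and -0.07, against 0.00 over all genes, and 19 of 27 and 9 of 12 genes were below 0. As deposited the medians were then no longer below 0, and after rescaling they stayed below 0. Those 2 lungs were already known to be the highest for these genes, so leaving them out was bound to raise the medians. These values are therefore a description.

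Isg15 was at 7.51, 6.49, 2.08, 3.30, 4.11, 5.82 and 5.97 CPM in HDM + Dex replicates 1 to 7. All 7 values were below the 14.6 to 28.4 CPM of HDM replicates 3, 6 and 7, and they overlapped the other HDM lungs. The log2 fold change was -0.85 (SE 0.35, limma adjusted p = 0.269). Irf7 ran from 9.34 over a median of 14.3 to 27.0 CPM with Dex and gave -0.83 (SE 0.40, limma adjusted p = 0.372). Cxcl9 ran from 0.617 over 4.31 to 42.7 CPM, the highest value being that of replicate 7, and gave -0.99 (SE 0.67, limma adjusted p = 0.575).

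Ordered by size, the next members were Ifit2 at -0.78 (SE 0.31), Oas3 at -0.76 (SE 0.36), Zbp1 at -0.74 (SE 0.40), Ifit3 at -0.64 (SE 0.31), Cxcl10 at -0.59 (SE 0.50) and Ifi44 at -0.56 (SE 0.32). Irf8 at -0.55 (SE 0.23), Mx1 at -0.55 (SE 0.28), Rsad2 at -0.50 (SE 0.36), Irgm1 at -0.48 (SE 0.28) and Bst2 at -0.47 (SE 0.21) followed. Among the members nearer to 0 were Ifit1 at -0.46 (SE 0.33), Gbp2 at -0.45 (SE 0.35), Stat2 at -0.35 (SE 0.24), Oas2 at -0.16 (SE 0.33), Usp18 at -0.14 (SE 0.25), Irf9 at -0.14 (SE 0.21), Gbp4 at -0.11 (SE 0.30) and Irf1 at -0.01 (SE 0.22). The limma adjusted p of these 19 genes was between 0.246 and 0.991.

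Within the Xist-positive lungs the comparison read differently, though it set HDM replicates 6 and 7 alone against 4 HDM + Dex lungs and was added after the values had been seen. As those 2 lungs were already known to be the highest for these genes, the direction was given by the choice of lungs, and the values are a description. Of all 17744 genes, 3 passed the threshold (0.0169%), and all 3 were type I members that were lower with Dex: Irf7, Oas3, a sensor of double-stranded RNA, and Oasl2, a related 2′-5′-oligoadenylate synthetase-like protein. Their log2 fold changes were -2.50 (SE 0.32), -2.15 (SE 0.26) and -1.68 (SE 0.21), each with a limma adjusted p of 0.0366. After rescaling Oas3 alone passed. Among lungs with a 7SL share under 25% (2 HDM, 3 HDM + Dex), 5 of 39 genes passed, all lower with Dex (Ifit2, Irf7, Oas3, Oasl2 and Rtp4) and 0.062% of all genes passed. Within the Ddx3y-positive lungs (5 HDM, 3 HDM + Dex), none of 39 passed (limma), 2 were lower at an unadjusted p under 0.05 (8.04% of all genes were), and the fold changes of Irf7, Oas3 and Oasl2 were -0.15 (SE 0.37), -0.16 (SE 0.41) and 0.08 (SE 0.33). Whether the effect of Dex differed between these sets of lungs was not tested.

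HDM + Dex replicate 7 stood apart from its group for the interferon-gamma genes, of which it was the highest in 11 of 12. Irf1 was at 84.2 CPM in it against 38.9 to 52.4 CPM in the other 6 lungs, and Gbp2 was at 106 CPM against 22.8 to 72.0 CPM. Among all genes tested, 40.2% had their highest HDM + Dex value in this lung as deposited and 15.7% after rescaling, by which measure it was still the highest for 9 of 12. For the type I genes it was the highest in 12 of 27 as deposited and in 2 of 27 after rescaling. Its marker sums are as deposited and were not rescaled. Its T and NK cell markers summed to 102 CPM, against 23.5 to 55.0 CPM in the other HDM + Dex lungs. Its B and plasma cell markers summed to 593 CPM, against 63.7 to 362 CPM in those lungs. For plasmacytoid dendritic cell markers the sum was 36.6 CPM, against 13.4 to 24.8 CPM. Its monocyte, macrophage and neutrophil sums lay within the range of the other 6 lungs.

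Set against naïve aged mice, the HDM + Dex lungs gave no call among the 39 genes, when 1.89% of all genes tested passed, and 1 gene, Bst2, was higher at an unadjusted p under 0.05, as 2.64% of all genes were. The median log2 fold change was -0.25 for type I and 0.00 for interferon-gamma genes, against -0.19 for all genes, and after rescaling -0.06 and 0.16, against -0.01. The nearest to the threshold was Bst2 at 0.63 (SE 0.23, limma adjusted p = 0.141). This comparison shares its lungs with both comparisons above.

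Between naïve aged and naïve adult lungs, 2 of the 39 genes rose with age, Cxcl9 and Cxcl10, when 0.654% of all genes tested passed. Both are chemokines that act on the receptor CXCR3, and they lie next to each other (chr5:92321347-92328079 and chr5:92346638-92348889 in GRCm38). Cxcl9, Cxcl10 and Trim30a, an interferon-induced ubiquitin ligase, separated the groups without overlap upward, as 2.91% of all genes did.

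Cxcl9 was at 0.323, 0.0495, 0.683, 0.270 and 0.323 CPM in adult lungs, which corresponded to an estimated 4, 1, 10, 5 and 6 reads. In naïve aged lungs it was at 1.13, 8.68, 7.88, 9.95 and 1.34 CPM, or an estimated 32, 124, 163, 198 and 27 reads. Each aged lung was thus above each adult lung, but replicates 1 and 5 were far below the other aged lungs. The log2 fold change was 2.04 (SE 0.41, limma adjusted p = 0.024), and the adjusted p was 0.0546 after rescaling. Cxcl10 was at 0.484, 0.395, 0.751, 0.541 and 0.430 CPM in adult lungs and at 2.37, 3.08, 2.51, 3.32 and 0.792 CPM in naïve aged lungs. Its aged replicate 5 lay just above the adult range, and the log2 fold change was 1.11 (SE 0.23, limma adjusted p = 0.0311), with 0.0556 after rescaling. After rescaling no member passed (limma), when 1.07% of all genes did, and 9 members were higher at an unadjusted p under 0.05, as 7.22% of all genes were. The calls were not stable to leaving out 1 lung: none remained without adult replicate 1, 2 or 4 or aged replicate 2, 3 or 4, Cxcl9 alone remained without adult replicate 3 or 5 or aged replicate 1, and both remained without aged replicate 5. All adult lungs were Xist-positive, and in a fit of Xist-positive lungs alone (5 adult, 2 aged) Cxcl9 and Cxcl10 both passed, when 0.648% of all genes did. The aged lungs in that fit were replicates 3 and 4, at 7.88 and 9.95 CPM of Cxcl9. Aged replicates 1 and 5, the lowest for Cxcl9, were left out with the Ddx3y-positive lungs. That fit therefore cannot tell sex from the choice of lungs.

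**Figure D5:**
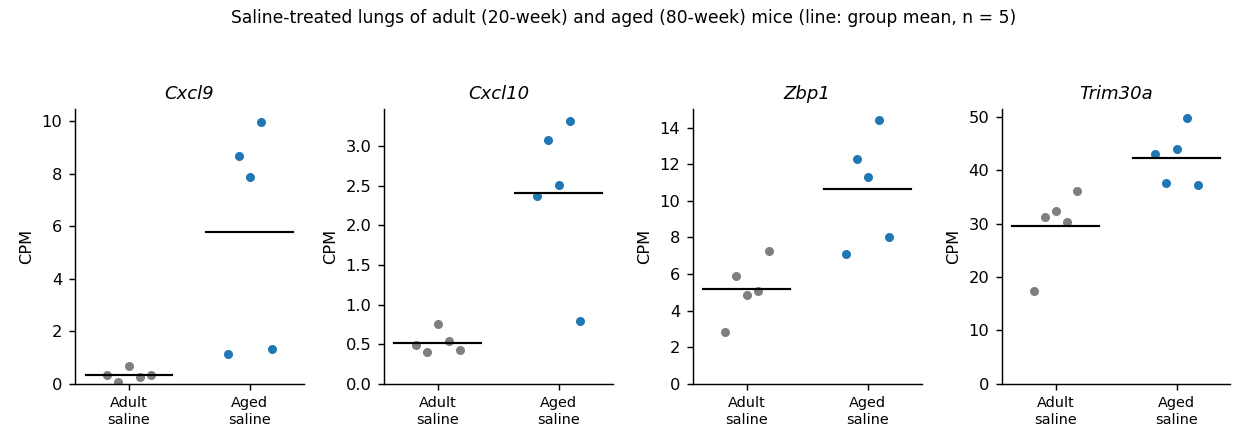
CPM of Cxcl9, Cxcl10, Zbp1 and Trim30a in naïve adult and naïve aged lungs, with a line at the group mean (n = 5 per group). The aged values of Cxcl9 (1.13 to 9.95 CPM) and Cxcl10 (0.792 to 3.32 CPM) are all above the adult values (0.0495 to 0.683 and 0.395 to 0.751 CPM), and Zbp1 overlaps between the groups.

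The other members were less separated by age. Zbp1, a sensor of Z-form nucleic acids that can trigger necroptosis, was at 2.83, 5.88, 4.85, 5.08 and 7.26 CPM in adult and 7.10, 12.3, 11.3, 14.4 and 8.01 CPM in aged lungs (log2 fold change 0.92, SE 0.24, limma adjusted p = 0.106). Oas2 followed at 0.82 (SE 0.25, limma adjusted p = 0.176) and Gbp5 at 0.76 (SE 0.26, limma adjusted p = 0.259). The medians were 0.26 for type I and 0.40 for interferon-gamma genes against 0.19 for all genes, and 0.05 and 0.19 against 0.01 after rescaling, so that the type I median was close to that of all genes and the interferon-gamma median lay above it on both scales. Bst2, which rose with HDM, had a fold change of -0.36 (SE 0.26) with age. The markers of neutrophils and of B and plasma cells also differed with age: 5 of 6 tested neutrophil markers and 2 of 6 B and plasma cell markers rose, and none of 10 T and NK cell markers passed. Their part in Cxcl9 and Cxcl10 was not tested.

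The ligands of the pathway were barely seen. Ifng was below the filter on low values, at 0 to 22 estimated reads per lung, and its largest values were 1.38 CPM in HDM + Dex replicate 7, 1.09 CPM in HDM replicate 3 and 0.673 CPM in HDM replicate 7. HDM replicate 6, the highest lung for the type I genes, had 0.201 CPM of Ifng, or 3 reads. Ifnk, a type I interferon of epithelium, was the only other listed ligand in the table, with group means of 1.58 to 2.0 CPM and no call in any comparison. The interferon-alpha, interferon-beta and interferon-lambda genes of the list were not analysed here.

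Of 6 receptor subunits, Ifngr2, the signalling chain of the interferon-gamma receptor, rose with HDM. It was at 28.4, 28.8, 29.4, 32.2 and 31.4 CPM in naïve aged lungs and at 48.9, 36.0, 49.2, 46.0, 57.3, 49.9 and 64.0 CPM in the HDM lungs. All 7 HDM lungs were above all naïve aged lungs, replicates 6 and 7 being no exception (log2 fold change 0.71, SE 0.13, limma adjusted p = 0.0012). The ligand-binding chain Ifngr1 had -0.32 (SE 0.15), the type I receptor chains Ifnar1 and Ifnar2 had 0.19 (SE 0.13) and -0.03 (SE 0.18), and the interferon-lambda receptor chains Ifnlr1 and Il10rb had -0.52 (SE 0.26) and 0.09 (SE 0.15). None of these 5 passed as deposited (limma adjusted p of 0.106 or more), and Ifnar1 and Il10rb passed after rescaling, at 0.44 and 0.34.

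Of 14 signal transducers tested, Irf5, a factor downstream of Toll-like receptors, rose with HDM (0.89, SE 0.20, limma adjusted p = 0.0037). Of 6 inhibitors, Socs1 and Socs3, which block the receptor kinases, rose (1.02, SE 0.29, and 0.78, SE 0.27) and Pias1, an inhibitor of cytokine signalling, fell (-0.49, SE 0.14), with limma adjusted p of 0.0153, 0.0406 and 0.0172. Pias1 did not pass after rescaling (-0.23, limma adjusted p = 0.0929). Of 26 further type I-responsive genes Oas1a alone rose (0.91, SE 0.30, limma adjusted p = 0.0311). Of 15 tested further interferon-gamma-responsive genes, Serpina3g, a protease inhibitor of activated T cells and macrophages, and Socs1, which is on both lists, rose. Serpina3g ran from 4.67 to 26.4 CPM in naïve aged lungs, from 17.1 to 90.0 CPM with HDM and from 23.6 to 105 CPM with HDM + Dex. Its log2 fold change was 2.06 (SE 0.39, limma adjusted p = 0.0011) for HDM and 1.94 (SE 0.39, limma adjusted p = 0.014) for HDM + Dex, and its highest HDM lung was replicate 3. After rescaling, 4 of 14 signal transducers, 4 of 26 further type I-responsive genes and 7 of 15 further interferon-gamma-responsive genes rose with HDM. Of all genes tested, 4.04% rose with HDM as deposited and 11% after rescaling. As deposited, no other gene of the pathway lists passed for HDM + Dex vs. saline, and none passed for HDM + Dex vs. HDM or for aged vs. adult.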

How the data were processed

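RNA from the left lung lobe of 24 mice (5 naïve adult, 5 naïve aged, 7 HDM, 7 HDM + Dex) was sequenced, and the CPM values were deposited by the authors as 1 table of 23891 genes, with a constant of 0.0001 added to each value. The methods of the study describe stranded libraries of mRNA, alignment with STAR and testing with limma, and the submitters' processing notes name mm9, FastQC, STAR and DESeq2. Gene starts in the table matched the GRCm38 annotation for 38 of the 39 members (Isg15 differed), so positions are given in GRCm38.

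CPM values are not counts, and no read counts were used. Between 80.3% and 84.9% of low values were whole multiples of a spacing (tolerance 0.05 of it), from which depth was estimated at 10.1 to 33.1 M reads per lung. Since not all low values were whole, read numbers are estimates.

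The 17744 genes that averaged 1 CPM or more over the 24 lungs were tested with limma 3.58.1 in R 4.3.3 on log2(CPM + 1), allowing a mean-variance trend, and p was adjusted by Benjamini-Hochberg over all genes tested (threshold 0.05). The log scale understates the change of low genes. The 19 aged lungs were in 1 fit (the source of 3 comparisons, which share lungs) and the 10 naïve lungs in another. The test was run on simulated data with independent noise and, for each gene, the same spread in all groups. That run does not cover groups of unequal spread, as found for the members. Each p-value sets a difference between group means against the spread between these mice, estimated over all groups in the fit. Groups of unequal spread thus shared 1 estimate for each gene.

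The members were chosen by symbol and split by their usual inducer. Members, pathway lists, marker lists and tests were chosen with earlier results of these data known. Named were each member past the threshold and 18 members whatever their result. Alternatives changed the pseudocount (0.1 or 5), the filter (none or 5 CPM), the scaling (median of ratios, quantile, or CPM without 11 genes of 7SL RNA and rRNA), the groups in the fit, the trend, sample weights, a replicate block, covariates (sex by Xist and Ddx3y, 7SL share), the threshold (0.01) and single lungs. Promoters came from RefSeq (GRCm38.p6). Summaries and figures were made with Python 3.11.15, pandas 2.3.3, numpy 2.4.6 and matplotlib 3.10.9.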

Additional observations from a re-analysis of the deposited data

Results flagged for a closer look

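Lungs far from the rest of their group were sought by Dixon's test among 164 sets of values, of which 13 stood out, while chance gives about 1 in 20, or 8.2. Of these, 5 belonged to naïve adult replicate 1, the lung with a 7SL share of 42.0%. In it Ifit2 was at 11.1 CPM (32.7 to 37.1 in the other adult lungs), Ifit3 at 14.7 CPM (36.6 to 41.3), Irf9 at 17.4 CPM (36.5 to 41.9) and Xaf1 at 3.39 CPM (10.5 to 12.4), and the median difference of the type I genes from the naïve aged mean was -0.88 on the log2 scale (-0.17 to -0.04). After rescaling this last value was -0.01.

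In other naïve lungs, Rsad2 was at 41.2 CPM in adult replicate 4 (6.3 to 11.2 in the others), Bst2 at 23.4 CPM in adult replicate 5 (9.25 to 12.1) and Gbp2 at 26.2 CPM in aged replicate 5 (44.7 to 49.5). In the HDM group, Dhx58, a regulator of RNA sensing, was at 21 CPM in replicate 6 (2.74 to 10.4). In the HDM + Dex group, Mx2 was at 5.66 CPM in replicate 1 (1.61 to 2.95), Rsad2 at 28.7 CPM in replicate 5 (4.48 to 14.4), and replicate 7 held 84.2 CPM of Irf1 (38.9 to 52.4) and 42.7 CPM of Cxcl9 (0.617 to 12.7).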

How the results depend on the processing

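For HDM vs. saline, 2 of 39 genes passed as reported. The count was 5 after median-of-ratios rescaling, 4 for CPM without 7SL RNA and rRNA, 10 with the 7SL share as a covariate and 1 at an adjusted p under 0.01, and 1 to 2 when single lungs were left out. Among all genes tested, 3993 of 17744 passed after rescaling and 3887 of 17737 without 7SL RNA and rRNA. With the 7SL share as a covariate 1571 of 17744 passed, and 2954 to 5338 when single lungs were left out. In alternatives chosen after seeing the data the count of members was 7 without HDM replicates 6 and 7 (4 after rescaling), 0 among Xist-positive lungs (also 0 after rescaling), 4 among Ddx3y-positive lungs and 29 among lungs with a 7SL share under 25%. For HDM + Dex vs. HDM, 0 passed as reported, 2 with sex and 2 with the 7SL share as a covariate, and, in alternatives chosen after seeing the data, 3 among Xist-positive lungs (1 after rescaling) and 5 among lungs with a 7SL share under 25%. Of all 17744 genes, 293 passed with sex and 563 with the 7SL share as a covariate. For HDM + Dex vs. saline, 0 passed as reported and 3 with sample quality weights, when 5471 of all 17744 genes passed with those weights. For both of these comparisons leaving out single lungs gave 0 each time. For aged vs. adult, 2 passed as reported, 1 with a pseudocount of 5, 1 with no filter, 1 with a mean of at least 5 CPM and 1 without 7SL RNA and rRNA. In these settings, in that order, 94 of 17744, 104 of 23891, 67 of 12391 and 151 of 17737 genes passed. The count of members was 0 after median-of-ratios rescaling, after quantile normalization, with all 24 lungs in the fit, with the 7SL share as a covariate, among lungs with a 7SL share under 25% and at an adjusted p under 0.01, it was 5 with sample quality weights, and 0 to 2 when single lungs were left out. With sample quality weights 784 of all 17744 genes passed. The cause of these changes was not tested.

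With a replicate block the counts were 2, 0, 0 and 2 in the order above, when 5644, 8, 898 and 168 of all 17744 genes passed. Most lungs with the same number did not deviate together (correlations of -0.238 to 0.407, over 0.1 in 1 of 5, 2 of 7, 0 of 5 and 0 of 5 pairs). The numbers were therefore not used as pairs. Whether the mice were matched in some other way cannot be told from these values.

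Over all single genes and settings, 5496 values kept their direction and side of the threshold, 67 came to pass it, 36 no longer passed and 5 reversed. The reversed log2 fold changes, all for HDM vs. saline, were 0.85 for Cmpk2, 1.13 for Ifi44, 1.06 for Ifit1 and 0.93 for Rtp4 among lungs with a 7SL share under 25%, and 0.45 for Ddx58 with the 7SL share as a covariate. The estimated depth limits statements on Ifng, Cxcl9 and Cxcl10, which had few reads in adult lungs.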
